A study of Mus musculus with 16 samples.

Results

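Oxidative phosphorylation genes were taken as those whose names begin with Atp5, Cox4 to Cox8, Uqcr, Sdh, any of Ndufv, Ndufs, Ndufc, Ndufb and Ndufa, or mt-. Of the 19715 genes in the matrix, 110 met this rule. They comprised the 13 protein-coding genes of mitochondrial DNA (mt- genes) and 97 nuclear genes. Of the nuclear genes, 84 were counted as subunits, with the complex read from the gene name alone: 38 of complex I, 4 of complex II, 8 of complex III, 17 of complex IV and 17 of complex V. Ndufa4 and its paralog Ndufa4l2 are counted under complex I for their names only. A further 12 are assembly factors, and 1 is the pseudogene-named Ndufb1-ps. The rarest members were Cox7b2 with 10 and Cox8b with 19 UMIs over all cells (a UMI is the tag that marks a single RNA molecule at capture), and no comparison was made for them.

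Oxidative phosphorylation passes electrons from NADH (complex I) and succinate (complex II) through complex III to oxygen at complex IV, and the proton gradient built on the way drives ATP synthase (complex V). Complex II is encoded wholly in the nucleus, whereas the other complexes combine nuclear subunits with core subunits read from mitochondrial DNA. Mitochondrial transcripts are cut from long precursors within the organelle. In droplet sequencing their share of a cell's RNA is also a common measure of cell damage.

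Tumors had been grown under the skin of male C57BL/6 mice, 8 weeks old, from NB9464D cells, a mouse neuroblastoma line, and had been taken on day 28 and dissociated mechanically and with collagenase at 1 mg/mL. The 4 groups were KO sorted and WT sorted (CD45+ leukocytes isolated by flow cytometry), and KO tumor and WT tumor (all tumor cells). KO hosts lacked CD200R, an inhibitory receptor of myeloid cells, per the sample characteristics (CD200R-/-), although the growth protocol of the labels names CD200-/- mice; WT hosts were wild type, and all hosts carried the same grafted line. The series title asks about CD200R signaling and chemokines of myeloid cells, for which the respiratory genes described here are a different readout. The labels list 16 samples, 4 per group, but each cell carries the name of its group alone. Each group was therefore 1 library, with no spread between replicates and no test, and whether animals were pooled is not given in the sources used here. All intervals printed are at 95% and cover counting error only. With 1 library a group, genotype cannot be told apart from differences between animals, grafts or preparations.

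There were 4305 KO sorted, 5219 WT sorted, 5897 KO tumor and 4955 WT tumor cells. Depth came to 29200338 UMIs (KO sorted), 62509573 (WT sorted), 103877007 (KO tumor) and 103277632 (WT tumor). Median depth per cell was 3127 UMIs in KO sorted and 4665 in WT sorted, and 16276 in KO tumor and 19850 in WT tumor. Cd200r1 had 0 UMIs in KO sorted and 2888 in WT sorted cells, and 5 in KO tumor and 76 in WT tumor cells. A total of 113 barcodes occurred in more than 1 library, in 307 cells. Cell types are the authors' names, and M1 and M2 macrophages were also summed as monocytes and macrophages. All 8 fibroblast markers were detected both in cells named fibroblasts and in cells named NB cells (NB, neuroblastoma) of both tumor libraries. The 5 neuroblastoma markers in the matrix summed to 260 CPM (counts scaled to all UMIs of the cell type and library) in KO and 162 CPM in WT tumor cells named NB, against 348 CPM in KO and 190 CPM in WT tumor cells named fibroblasts, with Ret at 0 in all of these. The markers thus did not separate the names, which are kept here only as names.

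Mitochondrial RNA took a larger share of all UMIs in KO cells of most sorted types. The 13 mt- genes of sorted monocytes and macrophages made up 5.68% of UMIs in KO (5.67 to 5.70) and 4.16% in WT (4.15 to 4.16), a log2 ratio of 0.45 (0.45 to 0.46). In sorted B cells the share was 8.15% in KO and 5.05% in WT, a log2 ratio of 0.69 (0.68 to 0.70). Relative to the median gene the log2 ratio was 0.13 in these monocytes and macrophages and 0.24 in these B cells. Cytosolic ribosomal protein genes took 19.1% of UMIs in KO and 31% in WT sorted B cells. The part of that difference in their mt- share was not tested. The share was higher in KO in 13 of 14 sorted types and in 4 of 7 tumor types with at least 50 cells in each library. Among cells under 10% mt- UMIs, a setting that selects on the share itself, the tumor count was 6 of 6, and with equal weight per cell it was 3 of 7. The median gene itself had a log2 ratio of 0.18 to 0.53 on this scale in every comparison except sorted cancer stem cells, where it was −0.02. Relative to the median gene, the mt- sum was higher in KO in 9 of 14 sorted and 2 of 7 tumor types.

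T and NK cells had mt- shares of 6.70% in KO and 4.34% in WT (CD4 T cells), 7.20% in KO and 4.88% in WT (CD8 T cells), and 5.59% in KO and 4.14% in WT (NK cells). CD8+ effectors had 5.52% in KO and 4.23% in WT, and Tregs 5.55% in KO and 4.32% in WT. Log2 ratios among these lymphocytes were 0.36 to 0.63 on all UMIs and −0.07 to 0.11 relative to the median gene. Their shares of all UMIs were thus higher in KO, while the shift was close to that of the median gene. In the myeloid cells, M1 macrophages had 6.11% in KO and 4.18% in WT, and M2 macrophages 5.09% in KO and 4.09% in WT. Myeloid dendritic cells had 4.47% in KO and 4.35% in WT, and their log2 ratio of 0.04 turned to −0.22 relative to the median gene.

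Neutrophils were the 1 sorted type with a lower mt- share in KO: 4.97% in KO (87 cells) and 8.46% in WT (432 cells), a log2 ratio of −0.77 (−0.80 to −0.74). The median neutrophil had 1.59% in KO and 2.08% in WT, so that the summed share lay well above that of the typical cell. The ratio came to −0.24 when every cell had the same weight and to −0.19 among cells below 10% mt- UMIs. Erythroid markers summed to 0 CPM in KO (0 of 6 detected) and 8638 CPM in WT (5 of 6 detected) in these neutrophils, and neutrophil markers to 35203 CPM in KO and 76934 CPM in WT. The part of these differences in the ratio was not tested.

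In the tumor libraries the mt- share was 9.42% in KO and 6.67% in WT for cells named fibroblasts, a log2 ratio of 0.50 (0.49 to 0.50), and 8.06% in KO and 6.22% in WT for cells named NB. Relative to the median gene the log2 ratios were 0.21 for cells named fibroblasts and 0.18 for cells named NB. Cells with more than 10% mt- UMIs made up 41.1% of KO and 10.0% of WT tumor cells named fibroblasts, whose median depth was 18136 UMIs in KO and 18299 in WT. The shift in these cells therefore stood beside nearly equal depth. Tumor monocytes and macrophages had 6.33% in KO and 6.07% in WT. Their log2 ratio of 0.06 on all UMIs was −0.25 relative to the median gene, and it was −0.09 in M1 and 0.22 in M2 macrophages, so no direction held. Tumor B cells had 7.52% in KO (327 cells) and 12.2% in WT (58 cells). The median B cell there had 6.38% in KO and 6.25% in WT, and the lower summed share in KO was not seen in the typical cell.

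**Figure D1:**
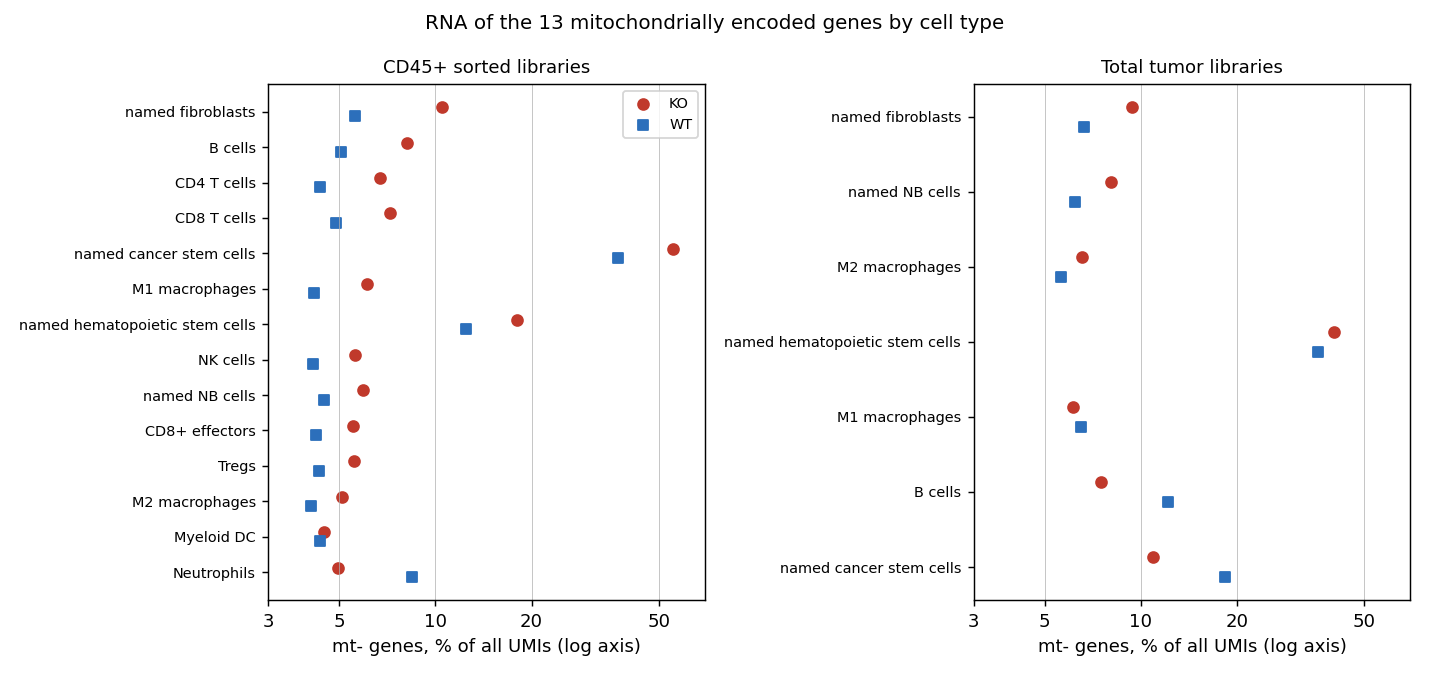
Percentage of all UMIs from the 13 mt- genes (log axis) for each cell type compared, sorted and tumor libraries apart, with circles for KO and squares for WT. Circles lie right of squares in 13 of 14 sorted types, neutrophils being the exception with 4.97% in KO and 8.46% in WT, and in 4 of 7 tumor types; relative to the median gene the counts are 9 of 14 and 2 of 7.

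Sorted monocytes and macrophages were shallower in KO, with a median of 7955 UMIs per cell in KO and 18239 in WT. In cells of 5000 to 20000 UMIs the mt- log2 ratio was 0.42, against 0.45 in all cells. Monocyte and macrophage markers, all 10 detected, summed to 17274 CPM in KO and 37503 CPM in WT. The part of that difference in the mt- share was not tested.

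The 13 mt- genes did not move as a block. In sorted monocytes and macrophages mt-Nd3, a core subunit of complex I (chromosome M, 9459 to 9806, plus strand, mm10), had 1207 CPM in KO and 413 CPM in WT, a log2 ratio of 1.22 (1.19 to 1.26) relative to the median gene. mt-Cytb, the cytochrome b of complex III (chromosome M, 14145 to 15288, plus strand), had 4119 CPM in KO and 4782 CPM in WT, a log2 ratio of −0.54 (−0.55 to −0.52). Transcripts of the same small genome thus lay on both sides of the median gene in the same cells. Of the 13, 5 were higher in KO by 1.5-fold or more and 0 lower by that much, where 20.3% of all 11398 genes tested were higher and 22.7% lower. On all UMIs the counts were 7 and 0.

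Among the other catalytic subunits of complex IV in these cells, mt-Co1 had 11544 CPM in KO and 5839 CPM in WT (log2 ratio 0.66). mt-Co2 had 9570 CPM in KO and 7602 CPM in WT (0.01), and mt-Co3 10437 CPM in KO and 7329 CPM in WT (0.19). Relative to the median gene, then, mt-Co1 was the highest of the 3 in KO. For complex V, mt-Atp8 had 116 CPM in KO and 47.1 CPM in WT (0.98), and mt-Atp6 10057 CPM in KO and 9015 CPM in WT (−0.17). These 2 genes overlap in the genome, so reads from the overlap cannot be assigned with certainty.

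The remaining complex I genes, in the same cells and order, were mt-Nd1 with 3467 CPM in KO and 1939 CPM in WT (0.51), mt-Nd2 with 2181 CPM in KO and 1826 CPM in WT (−0.07), and mt-Nd4 with 3328 CPM in KO and 2331 CPM in WT (0.19). mt-Nd4l had 309 CPM in KO and 152 CPM in WT (0.70), and mt-Nd5 446 CPM in KO and 278 CPM in WT (0.36). mt-Nd6, the only one of the 13 encoded on the other strand, had 28.9 CPM in KO and 13.3 CPM in WT (0.79). All but mt-Nd2 of these had positive ratios relative to the median gene, and on all UMIs mt-Nd2 was also higher in KO. mt-Nd4l overlaps mt-Nd4, and mt-Nd5 overlaps mt-Nd6 on the opposite strand.

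The order of the 13 genes recurred across sorted types. mt-Nd3 and mt-Atp8 were each among the 3 highest ratios in 13 of 14 types, and mt-Cytb was the lowest in 14 of 14. Median log2 ratios over the sorted types, relative to the median gene, were 1.04 for mt-Atp8 and 1.02 for mt-Nd3 (0.22 to 1.72), against −0.18 for mt-Atp6 and −0.40 for mt-Cytb. All sorted types share the same pair of libraries, so these are not repeated measurements of the genotype. In the tumor types mt-Nd3 was above mt-Cytb in 7 of 7, with medians of 0.51 for mt-Nd3 and −0.64 for mt-Cytb. Several other genes lost their place in the tumor types: mt-Atp8 had a median of 0.04 there, mt-Nd4l −0.11, mt-Co1 −0.27 and mt-Nd6 −0.29. On all UMIs these tumor medians were 0.32 for mt-Atp8, 0.24 for mt-Nd4l, −0.09 for mt-Co1 and 0.00 for mt-Nd6.

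In tumor cells named fibroblasts, mt-Nd3 had 1255 CPM in KO and 720 CPM in WT (log2 ratio 0.51), and mt-Cytb 12136 CPM in KO and 11002 CPM in WT (−0.15, and above 0 on all UMIs). In tumor cells named NB, mt-Nd3 had 1218 CPM in KO and 692 CPM in WT (0.62), and mt-Cytb 9653 CPM in KO and 10053 CPM in WT (−0.25). In tumor monocytes and macrophages mt-Nd3 had 940 CPM in KO and 586 CPM in WT (0.37, 0.27 to 0.47), and mt-Cytb 6678 CPM in KO and 8783 CPM in WT (−0.71, −0.74 to −0.68). The contrast between mt-Nd3 and mt-Cytb was thus present in each of these 3 types, with smaller ratios for mt-Nd3 than in sorted monocytes and macrophages. In sorted neutrophils mt-Nd3 had 1216 CPM in KO and 795 CPM in WT (0.22), and mt-Cytb 3983 CPM in KO and 10873 CPM in WT (−1.84).

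**Figure D2:**
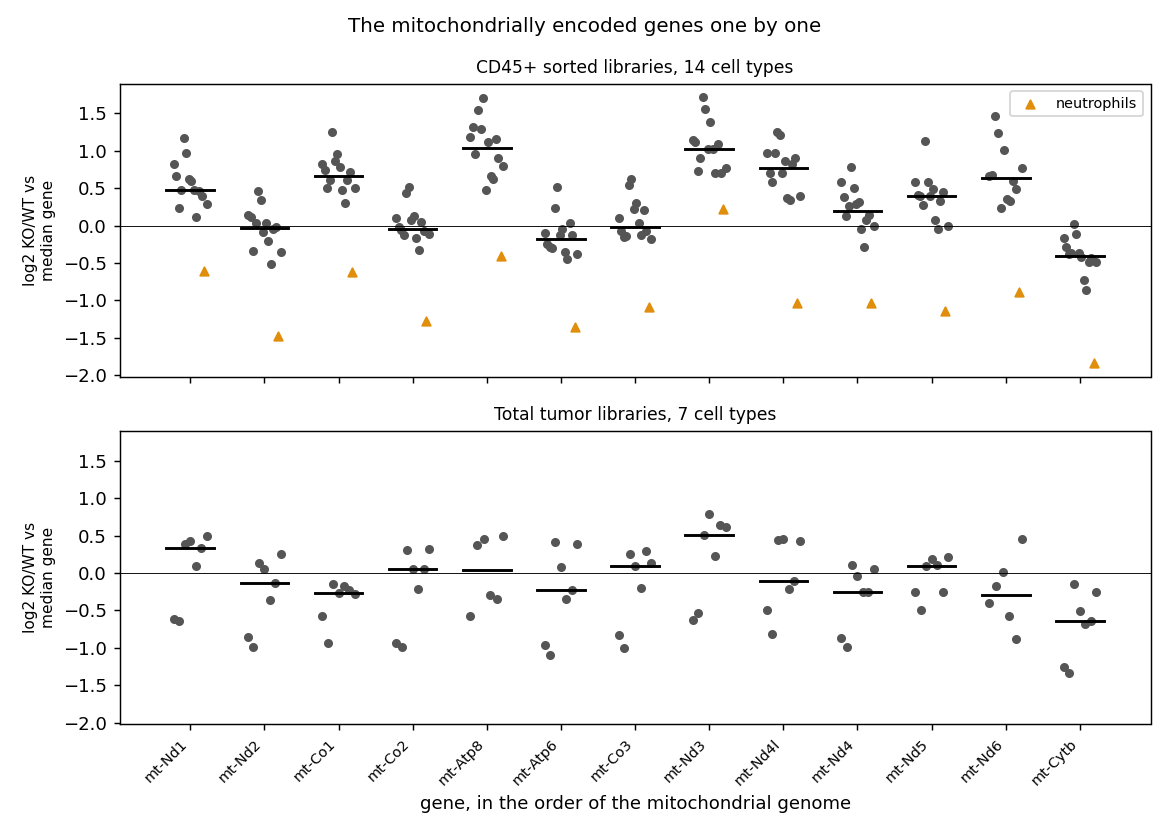
Log2 ratio KO over WT relative to the median gene of each mt- gene, in genome order on the horizontal axis, with a dot per cell type, a bar at the median over types and triangles for neutrophils; sorted and tumor libraries are drawn apart. mt-Nd3 and mt-Atp8 stand highest (sorted medians 1.02 and 1.04) and mt-Cytb lowest (−0.40, and −0.04 on all UMIs).

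Nuclear subunit genes did not share the higher mt- share in most sorted types, whereas in all 4 tumor types with a higher mt- share in KO the nuclear share was higher in KO as well. The 84 subunit genes of sorted monocytes and macrophages together took 1.89% of UMIs in KO (1.88 to 1.90) and 2.24% in WT (2.24 to 2.25), and there were 3.00 mt- UMIs per nuclear subunit UMI in KO and 1.86 in WT. In sorted B cells the nuclear share was 0.910% in KO (0.898 to 0.923) and 1.37% in WT (1.36 to 1.38), with 8.95 mt- UMIs per nuclear UMI in KO and 3.68 in WT. The nuclear share was lower in KO in 11 of 14 sorted types and in 1 of 7 tumor types. mt- UMIs per nuclear UMI were higher in KO in 12 of 14 sorted and 3 of 7 tumor types, a ratio that no scaling alters. The nuclear share was greatest in cells named fibroblasts among sorted types (2.48% in KO, 2.91% in WT) and smallest in neutrophils (0.555% in KO, 0.536% in WT, with overlapping intervals).

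Gene by gene, the nuclear subunits were lower in KO monocytes and macrophages of the sorted libraries. Of 82 with at least 50 UMIs over both libraries, 47 were at least 1.5-fold lower and 1 at least 1.5-fold higher relative to the median gene, against 22.7% and 20.3% of all genes. On all UMIs, a scale on which the median gene had a log2 ratio of 0.32, the counts were 24 lower and 5 higher. The median log2 ratio of the 82 was −0.64, or −0.31 on all UMIs, and 71 of the 82 were below 0. In cells of 5000 to 20000 UMIs, relative to the median gene, the median was −0.60, with 41 lower and 1 higher.

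Complex I, the NADH dehydrogenase, was lowest by median: −0.78 over 38 subunits, with 25 lower and 0 higher, and a summed level of 5171 CPM in KO and 6589 CPM in WT. Its most captured member, Ndufa4, had 360 CPM in KO and 423 CPM in WT (−0.56); the protein is also known as a subunit of complex IV. The iron-sulfur subunit Ndufv2 had 80.4 CPM in KO and 156 CPM in WT (−1.28). Against the rest, the accessory subunit Ndufa3 had 226 CPM in KO and 144 CPM in WT (0.32), the highest of the subunits with at least 50 UMIs in each library.

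Complex II, succinate dehydrogenase, split between its catalytic subunits. Sdhb, the iron-sulfur subunit, had 83.2 CPM in KO and 174 CPM in WT (−1.39). Sdha, the flavoprotein, had 145 CPM in KO and 94.9 CPM in WT (0.28). The partner genes therefore lay on opposite sides of the median gene. Sdha was above Sdhb in 13 of 13 sorted types in which both were tested but in 1 of 6 tumor types.

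Complex III, the cytochrome bc1 complex, had a median of −0.65 over 8 subunits, with 4 lower. Uqcrh, the hinge protein, had 501 CPM in KO and 442 CPM in WT (−0.14, and above 0 on all UMIs). Uqcrb had 266 CPM in KO and 452 CPM in WT (−1.09), and the Rieske protein gene Uqcrfs1 93.0 CPM in KO and 144 CPM in WT (−0.96). The ratio of Uqcrfs1 was below 0 in 14 of 14 sorted types, on both scales.

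Complex IV, cytochrome c oxidase, had a median of −0.61 over 15 subunits, with 8 lower and 1 higher. Cox8a had 601 CPM in KO and 861 CPM in WT (−0.84), Cox5b 284 CPM in KO and 459 CPM in WT (−1.01), and Cox6b1 424 CPM in KO and 525 CPM in WT (−0.63). Cox4i1 had 900 CPM in KO and 1008 CPM in WT (−0.49), and Cox7a2 346 CPM in KO and 408 CPM in WT (−0.56). Each of these 5 was lower in KO on both scales. Cox7a2l had 235 CPM in KO and 217 CPM in WT (−0.20), and Cox6a1 318 CPM in KO and 231 CPM in WT (0.13). The 1 member called higher, Cox6b2, known from testis, rested on 33 UMIs in KO and 57 in WT (3.76 CPM in KO, 1.70 CPM in WT; log2 ratio 0.82, 0.15 to 1.46).

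Complex V, ATP synthase, had a median of −0.64 over 17 subunits, with 9 lower and a summed level of 6323 CPM in KO and 7095 CPM in WT. In the catalytic head, Atp5b (the beta subunit) had 314 CPM in KO and 533 CPM in WT (−1.09). Atp5a1 (the alpha subunit, which pairs with beta) had 488 CPM in KO and 401 CPM in WT (−0.04, and above 0 on all UMIs). The genes of this pair thus differed in ratio, and Atp5a1 was above Atp5b in 14 of 14 sorted and 7 of 7 tumor types. In the central stalk, Atp5d had 195 CPM in KO and 383 CPM in WT (−1.30), and Atp5c1 220 CPM in KO and 361 CPM in WT (−1.03). Atp5h, of the peripheral stalk, had 401 CPM in KO and 508 CPM in WT (−0.67), and Atp5k, the subunit e, 333 CPM in KO and 213 CPM in WT (0.32). The annotation holds pseudogene copies named for Atp5c1 and Atp5k, so reads of these genes may be shared. The 12 assembly factors had a median of −0.64, with 8 lower and 0 higher, or 1 lower on all UMIs.

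Tumor monocytes and macrophages did not repeat the excess of subunits called lower relative to the median gene. Relative to the median gene, 56 of the 78 tested were still below 0. Of 78 subunits tested, 7 were at least 1.5-fold lower and 0 higher, where 13.2% of all 7619 genes were lower and 15.3% higher. On all UMIs 1 was lower and 9 were higher. The median of −0.15 was 0.16 on all UMIs, and the nuclear share was 2.32% in KO (2.30 to 2.34) and 2.11% in WT (2.09 to 2.13). Complex medians were −0.12 (I), −0.05 (II), −0.28 (III), −0.24 (IV) and −0.14 (V), each above 0 on all UMIs. The KO cells were again shallower, with a median of 2993 UMIs in KO and 11579 in WT.

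The members called lower in both preparations of monocytes and macrophages were Atp5b, Atp5c1, Atp5d and Uqcrfs1. They made up 4 of the 47 subunits called lower in the sorted preparation and 4 of the 7 in the tumor preparation. Of all genes, 22.7% were called lower in the former and 13.2% in the latter. The share of all genes called lower in both was not computed. Whether an overlap of 4 is more than other genes would give was therefore not tested. On all UMIs none of the 4 was called in the tumor libraries, with log2 ratios of −0.38 (Atp5b), −0.39 (Atp5c1), −0.48 (Atp5d) and −0.36 (Uqcrfs1). Relative to the median gene, tumor Atp5b had 468 CPM in KO and 609 CPM in WT (−0.69), and Atp5c1 327 CPM in KO and 428 CPM in WT (−0.70). Atp5d had 367 CPM in KO and 511 CPM in WT (−0.79), and Uqcrfs1 116 CPM in KO and 148 CPM in WT (−0.67). All 4 were lower in KO on both scales. At the other end in the tumor libraries, the accessory complex I subunit Ndufb7 had 232 CPM in KO and 131 CPM in WT (0.51), and Sdhb 134 CPM in KO and 118 CPM in WT (−0.13, and above 0 on all UMIs).

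**Figure D3:**
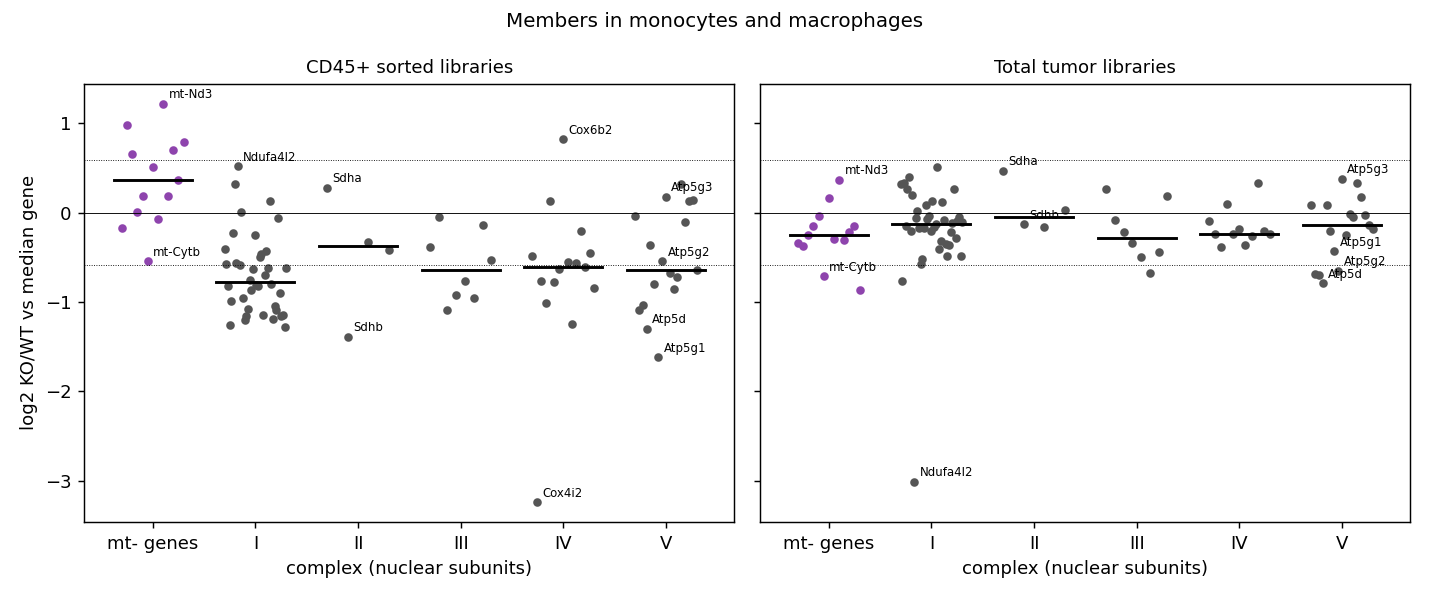
Log2 ratio KO over WT relative to the median gene in monocytes and macrophages, sorted and tumor libraries in separate panels. The mt- genes fill the first column and the nuclear subunits follow by complex. Dotted lines mark 1.5-fold. In the sorted panel 47 of 82 nuclear subunits lie at or past the lower line and 1 past the upper (24 and 5 on all UMIs). In the tumor panel 7 of 78 lie at or past the lower line and 0 past the upper (1 and 9 on all UMIs). Of the 13 mt- genes, 5 lie past the upper line and 0 past the lower in the sorted panel (7 and 0 on all UMIs). In the tumor panel 0 lie past the upper and 2 past the lower (1 and 0 on all UMIs).

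Sorted B cells had the same direction over more genes. Of 77 subunits tested, 63 were at least 1.5-fold lower in KO and 0 higher, against 27.4% and 24.0% of all 7285 genes, and on all UMIs 46 were lower and 2 higher. The complex medians were −1.18 (I), −0.50 (II), −0.74 (III), −1.21 (IV) and −0.94 (V), each below 0 on all UMIs too. Cox5b had 79.5 CPM in KO and 235 CPM in WT (−2.01), Cox8a 298 CPM in KO and 680 CPM in WT (−1.63), and Atp5d 124 CPM in KO and 324 CPM in WT (−1.83). Ndufs1, an iron-sulfur subunit of complex I, was highest, with 47.8 CPM in KO and 27.2 CPM in WT (0.37, −0.05 to 0.80). B cell markers, all 8 detected, summed to 13497 CPM in KO and 12832 CPM in WT.

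The median over nuclear subunits was below 0 in 13 of 14 sorted types, or in 12 of 14 on all UMIs, and it ranged from −1.14 in CD4 T cells to 0.16 in cells named cancer stem cells. It was −1.12 in B cells, −0.92 in CD8 T cells, −0.88 in NK cells, and −0.80 in Tregs and in CD8+ effectors. Myeloid dendritic cells lay closer to 0, at −0.33. In neutrophils the median of −0.17 was 0.22 on all UMIs; 15 of 46 subunits were lower and 4 higher, against 29.6% and 26.5% of all 2539 genes, and on all UMIs 8 were lower and 11 higher.

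Several members leaned the same way in most sorted types, over wide ranges (Cox5b −2.03 to −0.49, Atp5k −0.42 to 1.42). All types of a preparation share the same pair of libraries. Counts over types, here and for other genes, are therefore not repeated measurements of the genotype. Examples of low median log2 ratios over types, not a full list, were −1.71 for Atp5g1, −1.44 for Cox5b, −1.39 for Atp5d and for Sdhb, −1.33 for Ndufa12, −1.23 for Ndufv2 and −1.19 for Uqcrb. Atp5d and Cox5b were below 0 in 14 of 14 types and Ndufv2 in 13 of 13, on both scales. At the other end, Atp5k had a median of 0.45 and was above 0 in 11 of 14 types, and Sdha had 0.29 and was above 0 in 13 of 14. Cox6a1, at 0.13, was above Cox5b in 14 of 14 sorted and 7 of 7 tumor types. The lowest subunit with at least 50 UMIs in each library was Atp5g1 in M1 macrophages (−1.61), M2 macrophages (−1.43), NK cells (−1.90), Tregs (−1.82), CD8+ effectors (−1.75) and B cells (−2.12). It was Atp5d in CD4 T cells (−2.17) and CD8 T cells (−1.88), and Sdhb in myeloid dendritic cells (−0.98). In cells named cancer stem cells it was Cox5b (−0.49), and in neutrophils (−1.40) and cells named hematopoietic stem cells (−1.61) it was Cox8a. In the tumor libraries it was Atp5c1 in M1 macrophages (−0.69), where Cox7b was highest (0.39), and Ndufa10 in M2 macrophages (−0.84), where Sdhb was highest (0.93).

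Cells named fibroblasts and NB of the tumor libraries stayed near the median gene. In tumor cells named fibroblasts 7 of 80 subunits were at least 1.5-fold lower and 0 higher, against 15.2% and 17.5% of all 13211 genes; on all UMIs 3 were lower and 4 higher, and the median of −0.12 was 0.17. In tumor cells named NB 5 of 80 were lower and 1 higher, against 14.9% and 14.3% of all 12858 genes; on all UMIs 3 were lower and 5 higher, and the median was 0.06, or 0.25 on all UMIs. Relative to the median gene, both types thus had smaller shares past 1.5-fold than all genes. Ndufa2, an accessory subunit of complex I, was the highest in both, with 508 CPM in KO and 296 CPM in WT in cells named fibroblasts (0.49) and 553 CPM in KO and 317 CPM in WT in cells named NB (0.61). Cox5b was low here as in the sorted types, with 587 CPM in KO and 839 CPM in WT in cells named fibroblasts (−0.81) and 730 CPM in KO and 988 CPM in WT in cells named NB (−0.63). Cox4i1 had 1825 CPM in KO and 1305 CPM in WT in cells named NB (0.29), and Atp5a1 910 CPM in KO and 605 CPM in WT (0.39).

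**Figure D4:**
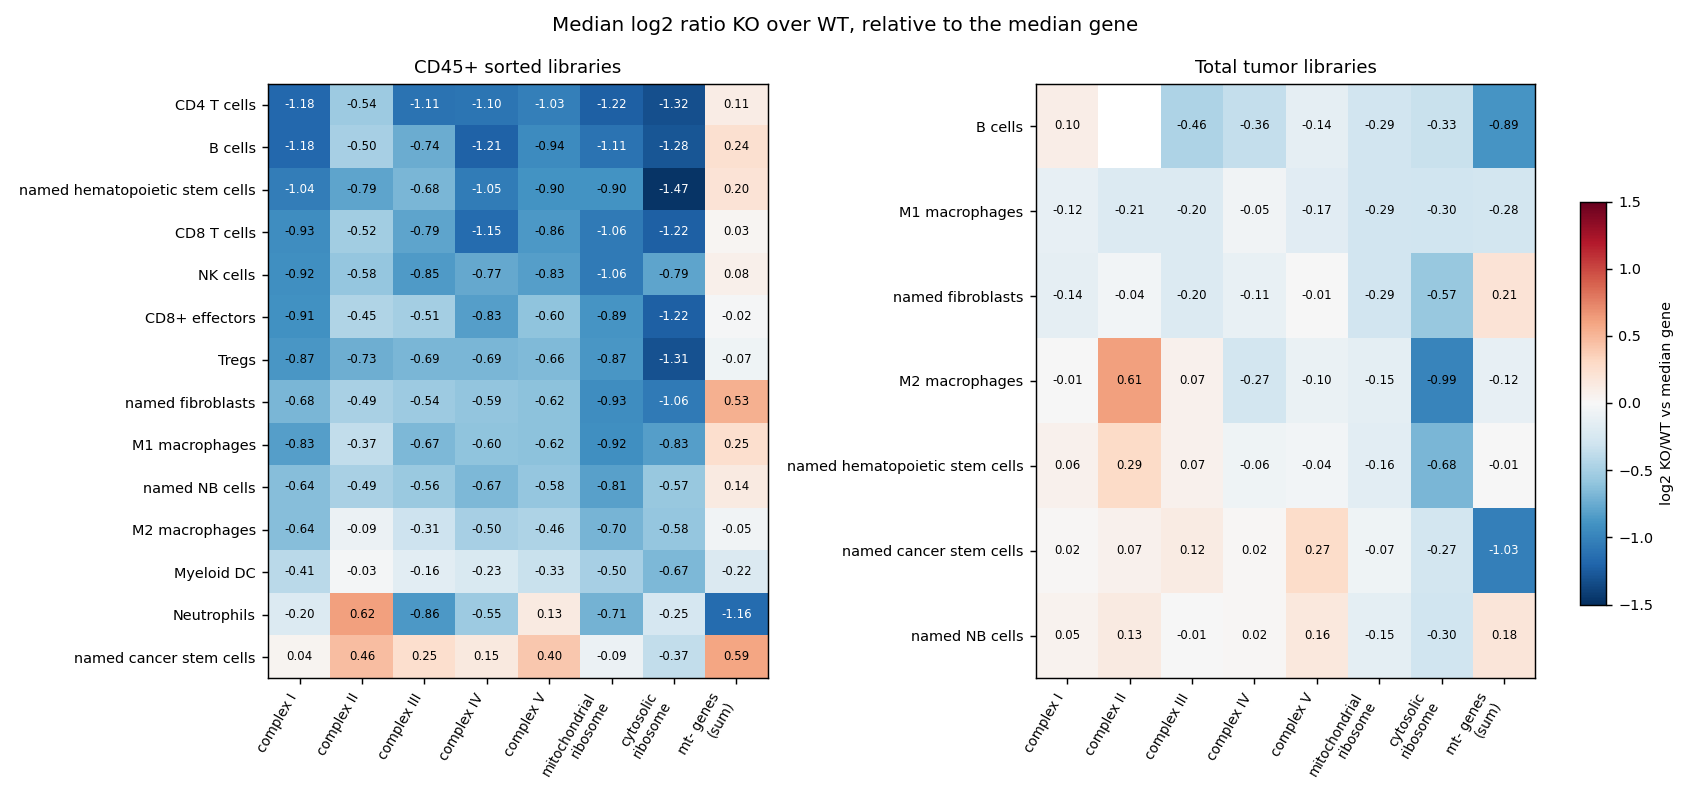
Median log2 ratio KO over WT relative to the median gene in each cell type (rows), sorted and tumor libraries apart. Columns are the nuclear subunits of complexes I to V, mitochondrial and cytosolic ribosomal proteins, and the mt- genes as a sum. A blank cell had no gene with enough UMIs. Complex medians of sorted types are mostly below 0 (complex I −1.18 in B cells and −0.83 in M1 macrophages). Those of tumor types run from −0.46 (complex III, B cells) to 0.61 (complex II, M2 macrophages). On all UMIs the median over all subunits is above 0 in 2 of 14 sorted and 6 of 7 tumor types.

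Atp5g1, Atp5g2 and Atp5g3 encode the same mature c subunit of the ATP synthase rotor with different import peptides, and they differed in ratio within the same cells. In sorted monocytes and macrophages Atp5g1 (chromosome 11) had 162 CPM in KO and 399 CPM in WT (−1.62, −1.70 to −1.54), Atp5g2 (chromosome 15) 515 CPM in KO and 599 CPM in WT (−0.54, −0.59 to −0.49), and Atp5g3 (chromosome 2) 370 CPM in KO and 261 CPM in WT (0.18, 0.12 to 0.24). Because the protein product is shared, their promoters are shown, as RefSeq gives them on GRCm38.p6 from 250 bases before to 50 bases after the start, all on the minus strand. Capitals mark matches, on either strand, to ACGTG or GCGTG (the hypoxia response core), GCGCATGC (the core of the NRF1 motif), AAGGTCA (the ESRRA core), CCGGAAG (the ETS core) and AAGATGGC (the YY1 core).
Atp5g1, chr11:96075582-96075881: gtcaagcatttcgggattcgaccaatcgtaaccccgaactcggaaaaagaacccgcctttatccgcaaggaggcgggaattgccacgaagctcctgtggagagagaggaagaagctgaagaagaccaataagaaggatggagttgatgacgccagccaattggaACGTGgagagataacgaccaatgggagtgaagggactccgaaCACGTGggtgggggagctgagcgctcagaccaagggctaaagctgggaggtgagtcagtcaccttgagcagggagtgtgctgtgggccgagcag
Atp5g2, chr15:102670998-102671297: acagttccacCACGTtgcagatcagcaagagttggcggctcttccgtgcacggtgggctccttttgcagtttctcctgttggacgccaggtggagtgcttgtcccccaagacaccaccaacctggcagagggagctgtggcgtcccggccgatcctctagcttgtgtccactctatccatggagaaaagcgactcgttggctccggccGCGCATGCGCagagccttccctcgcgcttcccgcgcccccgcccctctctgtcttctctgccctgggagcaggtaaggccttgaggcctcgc
Atp5g3, chr2:73911277-73911576: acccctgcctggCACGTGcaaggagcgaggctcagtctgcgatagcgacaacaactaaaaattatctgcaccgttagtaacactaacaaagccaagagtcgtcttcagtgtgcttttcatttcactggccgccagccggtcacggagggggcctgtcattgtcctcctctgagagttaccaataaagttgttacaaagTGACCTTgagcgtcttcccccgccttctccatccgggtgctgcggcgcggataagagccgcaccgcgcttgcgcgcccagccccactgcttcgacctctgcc
The Atp5g1 window held ACGTG at 3 places, 2 of which overlap in CACGTG, the Atp5g2 window 2 overlapping NRF1 cores on opposite strands and 1 ACGTG, and the Atp5g3 window 1 ESRRA core and 2 overlapping ACGTG. RefSeq promoters matched 68 of the 84 subunits by name, with 73 windows. The NRF1 core was found in 13.7% of these windows and in 2.71% of all 32851 promoters, the ETS core in 23.3% of windows and 8.86% of all promoters, and the YY1 core in 12.3% of windows and 2.75% of all promoters. The ESRRA core was in 11% of windows and 4.72% of all promoters, and the hypoxia response core in 64.4% of windows and 43.8% of all promoters. These are matches of letters and say nothing of binding.

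The order of the c-subunit genes changed with the preparation. Ratios ran Atp5g1 below Atp5g2 below Atp5g3 in 13 of 13 sorted types with all 3 tested. In the tumor types they ran Atp5g2 below Atp5g1 below Atp5g3 in 6 of 7. Atp5g3 was thus the highest in every type with all 3 tested, and Atp5g1 changed place. In tumor cells named NB, Atp5g1 had 804 CPM in KO and 775 CPM in WT (−0.14, and above 0 on all UMIs), Atp5g2 971 CPM in KO and 1304 CPM in WT (−0.62), and Atp5g3 457 CPM in KO and 277 CPM in WT (0.53). In tumor monocytes and macrophages Atp5g1 had 341 CPM in KO and 369 CPM in WT (−0.43), Atp5g2 623 CPM in KO and 784 CPM in WT (−0.65), and Atp5g3 287 CPM in KO and 178 CPM in WT (0.38, 0.19 to 0.57). Within a cell type these orders do not depend on the scaling, which moves all genes alike.

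Isoforms tied to oxygen or tissue had low ratios in several cell types. Some of them reached the minimum of 50 UMIs only through WT, where they were higher, and their UMIs are therefore given. Ndufa4l2, a paralog of Ndufa4 known as a target of the hypoxia-inducible factor (chr10:127514967-127517154, plus strand, GRCm38), had 4.87 CPM in KO and 111 CPM in WT tumor cells named fibroblasts (230 UMIs in KO, 5343 in WT), a log2 ratio of −4.80 (−5.00 to −4.61). It was detected in 5.90% of 2493 KO cells (5.0 to 6.89) and in 40.1% of 2461 WT cells (38.2 to 42.1), or in 1.33% of KO and 15.4% of WT cells after thinning to 2000 UMIs. In tumor cells named NB it had 3.21 CPM in KO and 54.1 CPM in WT (−4.27, −4.53 to −4.02). The difference was present in both types, at close depths in the named fibroblasts. In sorted B cells, which should lack the gene, it was found in 0 of 943 KO and 0 of 972 WT cells, which allows shares of cells with a UMI of it of up to 0.390% in KO and 0.379% in WT at median depths of 2168 UMIs in KO and 3118 in WT. That limits detection at this depth, not expression.

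Sorted cells named fibroblasts had 26.6 CPM of Ndufa4l2 in KO and 89.3 CPM in WT (−2.12, −2.57 to −1.69). Sorted cells named NB had none in 171 KO cells and 20.6 CPM in WT (166 UMIs), so that it was at least 29.6-fold lower in KO relative to the median gene, with KO set at 3 counts. These sorted NB-named cells carried 2326 CPM in KO and 12655 CPM in WT of monocyte and macrophage markers. Ndufa4l2 had a log2 ratio of −6.71 in tumor M1 macrophages and −3.01 in tumor M1 and M2 summed, both with fewer than 50 UMIs in KO. In tumor M2 macrophages Ndufa4l2 had 45.6 CPM in KO and 195 CPM in WT (−2.44, −2.95 to −1.96), beside a fibroblast marker sum of 390 CPM in KO and 1397 CPM in WT. The part of the fibroblast RNA in that difference was not tested. In sorted monocytes and macrophages the gene was near absent, at 1.94 CPM in KO (17 UMIs in 5 cells) and 1.08 CPM in WT (36 UMIs in 27 cells), with an interval that spans 0 (0.52, −0.40 to 1.39). Its paralog Ndufa4 had 591 CPM in KO and 535 CPM in WT tumor cells named fibroblasts (−0.15, and above 0 on all UMIs).

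Cox4i2, the isoform of complex IV subunit 4 also known to be induced by hypoxia (chr2:152754173-152765037, plus strand, GRCm38), was lower in KO monocytes and macrophages. The sorted ones had 1.94 CPM in KO (17 UMIs) and 14.6 CPM in WT (489 UMIs), a log2 ratio of −3.24 (−4.03 to −2.55). It was detected in 15 of 761 KO cells (1.97%) and 219 of 1577 WT cells (13.9%), or in 0.457% of KO and 3.07% of WT cells after thinning to 2000 UMIs. Both macrophage names showed it, with 2.76 CPM in KO and 16.1 CPM in WT (M1) and 0.808 CPM in KO and 10.1 CPM in WT (M2). Sorted cells named NB had a log2 ratio of −4.03 for Cox4i2, with fewer than 50 UMIs in KO. Endothelial markers summed to 41 CPM in KO (4 of 6 detected) and 16 CPM in WT (5 of 6 detected) in sorted monocytes and macrophages, and their part in the difference was not tested. Sorted B cells had it in 0 of 943 KO and 1 of 972 WT cells. Tumor monocytes and macrophages had 1 UMI in KO and 24 in WT, under the minimum of 50. The paired isoform Cox4i1 had ratios of −0.49 in sorted monocytes and macrophages and 0.11 in tumor cells named fibroblasts.

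**Figure D5:**
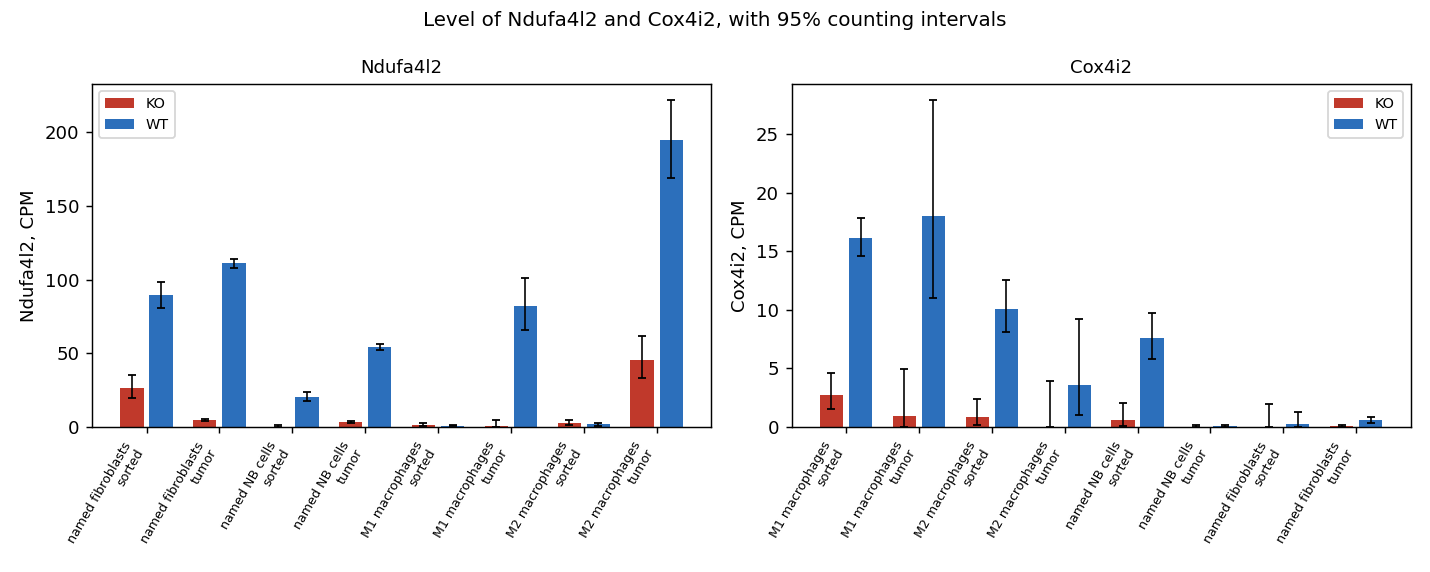
Level of Ndufa4l2 and Cox4i2 in CPM, with 95% counting intervals, for M1 and M2 macrophages, cells named fibroblasts and cells named NB, KO drawn left of WT in sorted and tumor libraries. Ndufa4l2 is lower in KO in tumor cells named fibroblasts (4.87 CPM in KO, 111 CPM in WT), and Cox4i2 is lower in KO in sorted M1 macrophages (2.76 CPM in KO, 16.1 CPM in WT).

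Other tissue isoforms of complex IV were rare. Cox7a1, the heart and muscle isoform, had 7.06 CPM in KO and 13.4 CPM in WT among monocytes and macrophages of the sorted libraries (−1.25, −1.66 to −0.86), and 1.29 CPM in KO and 3.78 CPM in WT tumor cells named fibroblasts (−1.84). Cox6b2 had 2 UMIs in KO and 57 in WT tumor cells named fibroblasts (−5.10, −8.18 to −3.18), the opposite direction to its ratio in sorted monocytes and macrophages. Cox6a2, the muscle isoform of subunit 6a, was concentrated in plasmacytoid dendritic cells. It had 803 CPM in KO sorted (711 to 904), 1935 CPM in WT sorted (1731 to 2157) and 981 CPM in KO tumor plasmacytoid dendritic cells. With 34, 17 and 9 such cells, no comparison was made.

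Genes outside the name rule that serve the same process were read from lists. Relative to the median gene, the shares of all genes at or past 1.5-fold were again 22.7% lower and 20.3% higher. In sorted monocytes and macrophages the mitochondrial ribosomal proteins, which translate the mt- messages, had a median of −0.90 relative to the median gene, with 60 of 78 lower and 0 higher (39 and 1 on all UMIs). Electron carriers had −0.77, with 7 of 13 lower and 0 higher (4 and 1 on all UMIs), and ATP synthase inhibitor, exchange carrier and porin genes −0.89, with 6 of 7 lower and 0 higher (3 and 0 on all UMIs). TCA cycle and pyruvate entry genes had −0.54, with 9 of 20 lower and 1 higher (5 and 2 on all UMIs); Ogdh (0.81) and Suclg1 (−1.42) were the extremes. Assembly factors outside the rule had −0.61, with 19 of 36 lower and 1 higher (11 and 3 on all UMIs). All 5 medians stayed below 0 on all UMIs. Genes of mitochondrial transcription, RNA handling and its regulators had a median of 0.20, with 1 of 22 lower and 5 higher (0 and 10 on all UMIs), so that the number higher was close to the share of all genes relative to the median gene. Ppargc1b, a coactivator of mitochondrial biogenesis, was highest at 2.10, and Fastkd2, a mitochondrial RNA-binding protein, lowest at −0.89.

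Lower ratios were also found in lists outside respiration. In the same cells cytosolic ribosomal proteins had −0.72, with 49 of 84 lower and 2 higher (26 and 7 on all UMIs), and hypoxia and glycolysis genes −1.26, with 18 of 24 lower and 0 higher (16 and 0 on all UMIs). RNA quality and dissociation genes had 0.09, with 2 of 11 lower and 3 higher (0 and 3 on all UMIs). Of all genes in these cells, 22.7% were lower and 20.3% higher relative to the median gene. The counts of RNA quality and dissociation genes were thus near those shares. In tumor monocytes and macrophages the medians were −0.07 for the TCA cycle (2 of 19 lower and 1 higher, or 0 and 2 on all UMIs) and −0.31 for mitochondrial ribosomal proteins (16 of 77 lower and 1 higher, or 5 and 3 on all UMIs), both above 0 on all UMIs. Of all genes in these tumor cells, 13.2% were lower and 15.3% higher relative to the median gene, so TCA cycle genes called lower were not in excess. Cytosolic ribosomal proteins there had −0.78 and hypoxia and glycolysis genes −1.51, below 0 on all UMIs as well. Fastkd2 was lower again, at −1.04. Tumor cells named fibroblasts had −0.14 for the TCA cycle and −0.29 for mitochondrial ribosomal proteins (0.15 and 0.00 on all UMIs). In sorted B cells mitochondrial ribosomal proteins had −1.11, with 61 of 74 lower and 1 higher (44 and 2 on all UMIs). Of all genes there, 27.4% were lower and 24.0% higher relative to the median gene.

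Among the cell types compared, those named cancer stem cells and hematopoietic stem cells had the highest mt- shares in every library. In the KO tumor library, however, cells named cancer stem cells, at 10.9%, were close to cells named fibroblasts, at 9.42%. Tumor neutrophils, too few to compare, had 22.2% in KO and 34.2% in WT. Sorted cancer stem cells had 55.3% in KO and 37.4% in WT, with median cells at 56.8% in KO and 59.8% in WT. Their erythroid markers summed to 0 CPM in KO (0 of 6 detected) and 207475 CPM in WT, so the KO and WT cells under that name did not hold the same RNA. Tumor cancer stem cells had 10.9% in KO and 18.4% in WT, with median cells at 0.988% in KO and 1.57% in WT; erythroid markers summed to 19752 CPM in KO and 28628 CPM in WT. Cells named hematopoietic stem cells had 18.0% in KO and 12.5% in WT (sorted) and 40.4% in KO and 35.8% in WT (tumor), and in the sorted cells B cell markers summed to 7744 CPM in KO and 11701 CPM in WT. The part of this mixed content in the mt- ratios was not tested. Among subunits with at least 50 UMIs in each library, Uqcr11 was the highest of sorted cancer stem cells (1.55). Under the same limit Ndufa2 was the highest of tumor hematopoietic stem cells (1.14).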

How the data were processed

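Single cells of the 4 groups had been captured on the 10x Genomics platform. Per the submitters' processing notes, mm10, Seurat 4.0.5 and Cell Ranger 6.0.1 were used, in roles that are not given. The authors deposited natural log values, ln(1 + 10000 × UMIs of a gene / UMIs of the cell), in a matrix with cell type names and, per cell, total counts. How cells were filtered is not given in the sources used here.

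Counts were recovered by inverting that formula: all 60957742 nonzero values were whole within 0.01, and the recovered sums equalled the deposited totals in all 20376 cells. UMIs were summed per gene, cell type and library, and expressed as CPM or as percent of the summed UMIs. Ratios have conditional binomial intervals, shares have Clopper-Pearson ones, and CPM has exact Poisson ones. Ratios are log2 KO over WT relative to the median gene (genes with at least 50 UMIs over both libraries, cell types with at least 50 cells in each), unless given on all UMIs. A gene was called at 1.5-fold. Shares of all genes past 1.5-fold were taken relative to the median gene only, so counts on all UMIs have no such share beside them. With 1 library per group there is no test and no p-value. Doublets were not removed in the values reported; thinning used seed 1. Positions come from GENCODE M21, promoters from RefSeq.

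Genes were named by rule: every mt- member, the most captured subunit of each complex, paired tissue isoforms, the extreme subunits of each comparison, and those called in both preparations of monocytes and macrophages. Ndufa3, Ndufa12, Ndufv2, Uqcrb and Cox5b in further cell types, with other repeats, were chosen after their values were seen. The members and lists were chosen with earlier results of these data known. Cells in the band of 5000 to 20000 UMIs, and cells without shared barcodes, were alternatives chosen after seeing the data. Python 3.11.15, numpy 2.4.6, scipy 1.17.1, pandas 2.3.3 and matplotlib 3.10.9 were used.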

Additional observations from a re-analysis of the deposited data

Results flagged for a closer look

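In 3 cell types the share of mt- UMIs pointed in opposite directions in the sorted and the tumor libraries, and the difference was not tested. In B cells the log2 ratio KO over WT was 0.69 sorted and −0.70 tumor, the tumor value resting on 327 KO and 58 WT cells. In cells named cancer stem cells it was 0.56 sorted and −0.75 tumor. In M1 macrophages it was 0.55 sorted and −0.09 tumor. Among cells under 10% mt- UMIs the tumor ratios were 0.07 in B cells, 0.46 in cells named cancer stem cells and 0.06 in M1 macrophages, so the opposition was not seen under that setting. That setting selects cells on the very share compared, so it cannot decide the direction over all cells.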

How the results depend on the processing

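Of 2491 alternative values of 271 results, 1300 stayed within a set limit, 1168 moved further and 23 reversed. The limit was the counting interval for mt- shares and single genes, and 1.5 times for counts. For nuclear medians it was an interval of the median over subunits, which reflects spread between genes and not counting error. The cause of these shifts was not tested. No paired analysis was possible because the cells carry 1 library name per group and no test was made; for the same reason no replicate could be left out.

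The mt- log2 ratio of sorted monocytes and macrophages, 0.45, was 0.55 in M1 and 0.32 in M2 macrophages alone, 0.36 in cells under 10% mt- UMIs, 0.41 with equal weight per cell, 0.42 in cells of 5000 to 20000 UMIs or without ribosomal protein genes, 0.46 without shared barcodes, and 0.47 without doublets or without mt- genes in the denominator. Their nuclear median of −0.64 was −0.50 in M2 macrophages, −0.35 without ribosomal protein genes, −0.31 on all UMIs and −0.29 without mt- genes. The 47 nuclear subunits lower in KO became 20 at 2-fold, 23 without mt- genes, 24 on all UMIs and 25 without ribosomal protein genes. The 1 higher became 5 on all UMIs or without mt- genes, 4 without ribosomal protein genes, and 0 at 2-fold, in M1 or M2 macrophages alone or with at least 200 UMIs.

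In tumor monocytes and macrophages the mt- ratio of 0.06 was −0.09 in M1 and 0.22 in M2 macrophages, −0.14 with equal weight, −0.07 without ribosomal protein genes, 0.04 at 5000 to 20000 UMIs, 0.05 without doublets and 0.20 under 10% mt- UMIs. The nuclear median of −0.15 was 0.16 on all UMIs or without mt- genes, 0.02 without ribosomal protein genes, and −0.05 in M2 macrophages or with at least 200 UMIs. The 7 lower became 1 on all UMIs, without mt- genes or at 2-fold, 2 without ribosomal protein genes, and 11 in M2 macrophages, with at least 20 UMIs or with at least 1 UMI in each library. The 0 higher became 9 on all UMIs or without mt- genes, 10 in M2 macrophages, 2 without ribosomal protein genes or at 5000 to 20000 UMIs, and 1 with equal weight, under 10% mt- UMIs, with at least 200 UMIs or with at least 1 UMI in each library. The M2 counts were of 78 subunits, where 20.8% of all genes were lower and 23.9% higher in tumor M2 macrophages.

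Other mt- ratios reversed in cells under 10% mt- UMIs to 0.07 in tumor B cells, 0.46 in tumor cancer stem cells and 0.06 in tumor M1 macrophages. Tumor cancer stem cells also turned to 0.28 at 5000 to 20000 UMIs. Equal weight gave −0.08 in sorted cancer stem cells and −0.12 in tumor M2 macrophages. Leaving out ribosomal protein genes gave −0.03 in sorted myeloid dendritic cells and in tumor M2 macrophages. Nuclear medians reversed to 0.17 on all UMIs, 0.21 without mt- genes and 0.04 without ribosomal protein genes in tumor cells named fibroblasts. In tumor M1 macrophages they reversed to 0.06, 0.05 and 0.03 under the same settings and to 0.02 with at least 200 UMIs, which gave 0.10 in tumor B cells. Cox6a2 in sorted monocytes and macrophages turned to 0.12 at 5000 to 20000 UMIs.

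At 5000 to 20000 UMIs only 8 sorted types kept 20 cells a library, and the mt- share was higher in KO in all 8. That count was 12 of 14 sorted and 3 of 7 tumor types without ribosomal protein genes or with equal weight, and in the tumor libraries 6 of 6 under 10% mt- UMIs and 5 of 6 at 5000 to 20000 UMIs. Nuclear medians above 0 numbered 1 of 14 sorted and 3 of 7 tumor types. These became 2 sorted and 6 tumor types on all UMIs, without mt- genes, without ribosomal protein genes or with at least 200 UMIs. With at least 20 UMIs, or at least 1 UMI in each library, they became 0 sorted and 1 tumor, and 0 sorted at 5000 to 20000 UMIs. The doublet rule removed 5.57% of KO sorted, 13.3% of WT sorted, 2.27% of KO tumor and 1.33% of WT tumor cells.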
